A study of Saccharomyces cerevisiae with 12 samples.

Results

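The transcriptome of untreated tetO-GLN4 yeast was compared with that of untreated wild-type yeast, so that the 2 strains were set side by side before any doxycycline was given to deplete the glutaminyl-tRNA synthetase Gln4p. The wild type is the haploid laboratory strain BY4742 (MATα his3Δ1 leu2Δ0 lys2Δ0 ura3Δ0). The tetO-GLN4 strain is a BY4742 derivative in which a KanMX4-tTA-tetO7 cassette stands upstream of GLN4, so that the tTA activator drives GLN4 from tetO sites until doxycycline is added. Both strains share the his3, leu2, lys2 and ura3 alleles, and the tetO-GLN4 strain carries in addition the geneticin resistance marker and the gene for tTA, with and without the drug. Cultures were grown in YEPD, a rich glucose medium, at 30 °C to mid-log phase. Each strain was grown with 0 or 1 μg/ml doxycycline, as 3 cultures from independent colonies per condition, or 12 libraries in all, of which the 6 untreated ones make this comparison. RNA was sequenced from stranded poly(A) libraries, and the deposited values are FPKM (fragments mapped to a gene, scaled by its length and by the mapped fragments of the library), with 1 combined value for the 3 cultures of a condition. One tetO-GLN4 strain was sequenced, so whatever else distinguishes that transformant from its parent cannot be told apart from the cassette.

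Genes were taken where both untreated conditions had a valid estimate above 0, which left 6562 of 7130 listed genes. Of the others, 529 were listed at 0 in both strains, 32 were at 0 in 1 strain, and 7 had an estimate that failed because the fragments were too many (status HIDATA). The tables of the 2 strains were scaled separately, so the log2 ratio of tetO-GLN4 over wild type was centred on its median over these genes, which was 0.15 before centring (a 1.11-fold higher FPKM in tetO-GLN4). All log2 ratios below are relative to that median. A gene was called higher or lower when its centred ratio was at least 2-fold and the authors' 95% confidence intervals lay apart after the same centring. This is a description of combined values and not a test, because no value per culture was analysed and a spread between cultures could not be computed.

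Several well studied gene groups of budding yeast turn up in what follows. Phospholipid synthesis genes are governed by inositol: the Ino2-Ino4 heterodimer of helix-loop-helix proteins binds an upstream element called UASINO, with the core CATGTG, and activates transcription, and the repressor Opi1 enters the nucleus and silences the same genes when inositol is plentiful. INO1, which encodes the inositol-3-phosphate synthase, is the classical reporter of this switch. Glycogen and trehalose are the reserve carbohydrates of yeast, made when glucose runs low or growth slows, and many of their genes, like the general stress genes, respond to Msn2 and Msn4 through the stress response element AGGGG.

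The UASINO core was found upstream of 41 of the 131 genes called higher that could be searched. Some genes with large differences, such as GSY1 and GLC3, lacked it. Upstream sequences of INO1 and of some other genes called higher are shown first, chosen for holding this core and not by the size of the difference. They were read from the RefSeq R64 genome, whose start and end coordinates match those of the deposited tables for 99.3% of 5264 genes with a locus of their own. The INO1 gene (YJL153C) occupies chrX:134332-135933 on the minus strand. The stretch from 300 to 101 bases before its start codon (chrX:136034-136233, minus strand) holds 2 copies of the UASINO core, and the capitals mark CATGTG, or CACATG where the core reads on the other strand.
INO1 upstream: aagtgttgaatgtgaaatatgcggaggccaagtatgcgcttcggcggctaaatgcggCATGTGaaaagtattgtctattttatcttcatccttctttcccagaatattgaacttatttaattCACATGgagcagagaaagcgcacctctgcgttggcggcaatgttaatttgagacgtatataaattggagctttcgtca

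Windows of 30 bases around the core follow for other genes that were called higher. Each is read 5′ to 3′ on the strand that holds CATGTG, and the capitals mark CATGTGAA where the 2 following bases are A and CATGTG otherwise.
ITR1, chrIV:1445671-1445700, minus strand: ccttccccaccgCATGTGAAaaaagctcga
ITR1, chrIV:1445732-1445761, plus strand: ctatacctaacgCATGTGAAgagaacagaa
OPI3, chrX:573066-573095, plus strand: aaaccaacgatgCATGTGtgggtttgcata
OPI3, chrX:573130-573159, minus strand: tcaatgagagtgCATGTGgaaagttgcacc
CHO1, chrV:208616-208645, plus strand: tttagatgggtcCATGTGAAagctcaaagg
CHO2, chrVII:802161-802190, plus strand: ttattcccttctCATGTGAAgagttcacac
CHO2, chrVII:802092-802121, plus strand: ggatctccgacaCATGTGAAtttataagta
PSD1, chrXIV:317818-317847, minus strand: agcaggcacaagCATGTGgaaaatttgttc
CDS1, chrII:297887-297916, minus strand: cagatgggatgaCATGTGAAaagtgtaaca
CKI1, chrXII:408240-408269, minus strand: acggtagagcacCATGTGAAtattatacca
HNM1, chrVII:364166-364195, plus strand: ataggttctgcgCATGTGAAaaaaaagaga
INO2, chrIV:699595-699624, minus strand: aagtacaacacaCATGTGAAtttttttcag
INO4, chrXV:111990-112019, plus strand: aggtgagaaaaaCATGTGAAtattttgttt
FAS2, chrXVI:108408-108437, minus strand: cgaatgaggtagCATGTGAAaacgcgggag
SAM2, chrIV:1454824-1454853, plus strand: ccagatgaatcaCATGTGAAgatgttaaca
YEL073C, chrV:7646-7675, minus strand: taaacggtcgagCATGTGAAatttacaagg
In ITR1 and CHO2 the 8-base form occurred at 2 places, while OPI3 and PSD1 held only the 6-base core. The window given for CKI1 also lies upstream of YLR132C, which is transcribed away from CKI1, and that of INO4 also lies upstream of YOL107W.

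The sequence that the design changed lies upstream of GLN4 (YOR168W, chrXV:649303-651732, plus strand). In the reference genome 295 bases separate GLN4 from the divergent ribosomal protein gene RPS28A, and the junctions of the cassette were not mapped here. The native stretch from 290 to 91 bases before the start codon (chrXV:649013-649212) is shown without capitals, since no motif in it is discussed.
GLN4 upstream: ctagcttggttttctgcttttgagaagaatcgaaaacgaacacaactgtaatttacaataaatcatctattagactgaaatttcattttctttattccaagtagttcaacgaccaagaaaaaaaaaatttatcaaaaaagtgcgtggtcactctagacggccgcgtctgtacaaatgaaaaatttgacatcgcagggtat

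The targeted gene itself could not be compared. GLN4 had an FPKM of 199 (157 to 241), the range being the authors' 95% interval, in untreated wild type and 199 (158 to 241) in wild type with doxycycline. In untreated tetO-GLN4 its estimate failed with status HIDATA and it was listed at 0, as was the overlapping YOR169C, so no level can be given. The paper states, without showing data, that the tet promoter is stronger than that of native GLN4 and can raise Gln4p above its wild-type amount. With doxycycline the tetO-GLN4 strain had an FPKM of 30.5 (24.1 to 36.9) for GLN4. None of the other neighbours was called. RPS28A, the nearest on the other side of the cassette, had an FPKM of 24895 (19599 to 30191) in wild type and 36349 (27840.4 to 44858) in tetO-GLN4, a centred log2 ratio of 0.40. The ratios of SEY1, SWT1, LCB4 and YRM1 lay between -0.21 and 0.19. YOR170W, which shares its place with other features, was at -0.78 with overlapping intervals.

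The labels of both strains were checked against genes whose state is known. LEU2, LYS2 and URA3, deleted in the background, were listed at 0 in all 4 conditions, and HIS3, whose locus the tables join with DED1, had an FPKM of 410.0 and 332 in untreated wild type and tetO-GLN4. The α pheromone gene MF(ALPHA)1 was at 12098 (9037 to 15158) and 11956 (9304 to 14609), and the α-specific receptor gene STE3 at 563 (438 to 687) and 611 (459.7 to 762), so both untreated strains had the transcripts of α cells at like levels. The a-specific genes were low in both, with STE2 at 8.64 and 7.10. Wild type with doxycycline was alike, with MF(ALPHA)1 at 11296 (8476 to 14116) and STE3 at 562 (438 to 686). The condition labelled tetO-GLN4 with doxycycline stood apart: MF(ALPHA)1 was at 191 (152 to 229.6) and STE3 at 11.5 (8.69 to 14.3) there. With doxycycline in both strains, 9.19% of all genes were called higher and 9.25% lower. In that comparison all 4 α-specific genes with a value were called lower, with a median log2 ratio of -5.92, while 3 of 7 a-specific genes were called higher. Values of tetO-GLN4 with doxycycline are given below beside the others with this in view, and the main comparison uses none of them. MATALPHA1, MATALPHA2, the 8 listed genes of the mitochondrial genome and the 4 of the 2-micron plasmid were listed at 0 in both untreated strains. Medians of the centred log2 ratio by chromosome ran from -0.03 to 0.05.

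Against this background 135 genes were called higher in untreated tetO-GLN4, or 2.06% of the 6562, and 22 were called lower, or 0.335%. Of those called higher, 33 differed at least 4-fold and 8 at least 8-fold, against 4 lower genes that differed at least 4-fold. Most of the transcriptome lay close together: 89.2% of the genes were within 1.5-fold of the median, and the SD of the centred log2 ratio across genes was 0.48. For scale, the same call applied to wild type with over without doxycycline gave 6 higher genes (0.0915%) and 2 lower genes (0.0305%) of 6560, with an SD across genes of 0.25. That yardstick lies within 1 strain and 1 table, so it does not carry the separate scaling. RNA came from whole cultures, so a large difference in some of the cells and a small one in all of them cannot be told apart.

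**Figure D1:**
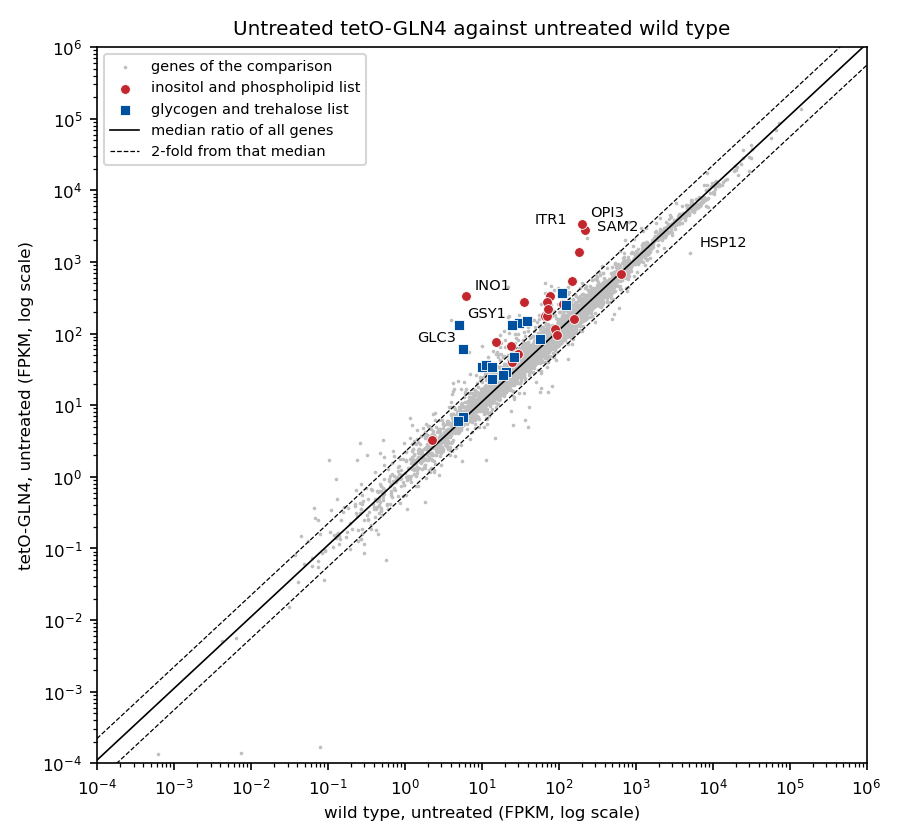
Each point is 1 of 6562 genes, with its FPKM in untreated wild type (horizontal, log scale) against untreated tetO-GLN4 (vertical, log scale), the 3 cultures of each combined; the solid line is the median ratio and the dashed lines are 2-fold from it. The inositol and phospholipid genes (circles) and the glycogen and trehalose genes (squares) stand above the upper dashed line in 14 and 9 cases, with INO1 the farthest at 47.9-fold.

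Genes of inositol and phospholipid metabolism were the list with the highest median of those in the plot of gene lists, and 5 of them were among the 15 highest genes ranked. Of the 21 members of that list, 14 were called higher and none lower, a share of 66.7% against the 2.06% of all genes, and the median of the list was 1.32 against 0 for all genes. Their values are given one by one, beyond the 3 that the naming rule picks. INO1 had an FPKM of 6.28 (4.69 to 7.88) in untreated wild type, 4.97 (3.71 to 6.23) in wild type with doxycycline, 333 (239 to 427) in untreated tetO-GLN4 and 16.2 (12.7 to 19.8) in tetO-GLN4 with doxycycline. It was low in the other 3 conditions and stood apart in untreated tetO-GLN4, with a centred log2 ratio of 5.58, or 47.9-fold, the largest of all genes called.

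Uptake of the precursors differed in the same direction. ITR1, the major myo-inositol transporter, had an FPKM of 219.7 (175 to 264) in untreated wild type, 241 (193 to 289) in wild type with doxycycline, 2788 (2149 to 3426) in untreated tetO-GLN4 and 206 (158 to 253) in tetO-GLN4 with doxycycline, a log2 ratio of 3.52 between the untreated strains. HNM1, which carries choline and ethanolamine into the cell, was at 149.9 (120.2 to 179.6), 159 (128 to 191), 545 (414 to 675) and 192 (148 to 235) in the same order, a ratio of 1.71. The minor inositol transporter gene ITR2 did not share this pattern: its FPKM was 93.9 (75.4 to 112) in untreated wild type and 95.2 (75 to 115) in untreated tetO-GLN4, a log2 ratio of -0.13. GIT1, the permease for glycerophosphoinositol, was low in both strains at 2.27 and 3.27 and was not called.

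The enzymes that turn CDP-diacylglycerol into phosphatidylcholine were called higher at every step of that route. CDS1 makes CDP-diacylglycerol, and its FPKM was 76 (60.6 to 91.4) in untreated wild type and 329 (251 to 407) in untreated tetO-GLN4, a log2 ratio of 1.97. CHO1, the phosphatidylserine synthase, went from 186 (149 to 223) to 1367 (1029 to 1705), a ratio of 2.73. PSD1, the mitochondrial decarboxylase that makes phosphatidylethanolamine, was at 35.8 (23.5 to 48) and 274 (195 to 353), a ratio of 2.79, but the tables place it at a locus shared with 3 other features. The methyltransferase genes CHO2 and OPI3 act last. CHO2 was at 69.8 (56 to 83.6) and 274 (209 to 339), a log2 ratio of 1.82. OPI3 had an FPKM of 198 (158 to 239) in untreated wild type, 196 (157 to 236) in wild type with doxycycline, 3415 (2559 to 4271) in untreated tetO-GLN4 and 435 (340.1 to 529) in tetO-GLN4 with doxycycline. Its untreated log2 ratio of 3.96 came next to that of INO1 in the list. PSD2, the other phosphatidylserine decarboxylase gene, had a ratio of 0.56 and was not called.

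In the branch that builds phosphatidylcholine and phosphatidylethanolamine from free choline and ethanolamine, differences were smaller and less uniform. CKI1, the choline kinase, had an FPKM of 15.4 (12 to 18.8) in untreated wild type and 77 (60.5 to 93.5) in untreated tetO-GLN4, a log2 ratio of 2.18. EPT1 and CPT1, the phosphotransferases that end the branch, were called at 1.18 and 1.02, the latter just past the 2-fold limit. EKI1, the ethanolamine kinase, lay at 0.64, and PCT1, the enzyme between the kinase and the transferases, at 0.22. Neither was called. PIS1, which joins inositol to CDP-diacylglycerol, and INM1, an inositol monophosphatase, had ratios of -0.07 and -0.14, with FPKM values of 648 and 683 for PIS1.

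The 3 regulators of this regulon were themselves called higher, by less than most of the enzyme and transporter genes called. INO2 had an FPKM of 23.9 (18.4 to 29.4) in untreated wild type, 28.2 (21.8 to 34.5) in wild type with doxycycline, 66.2 (52.6 to 79.7) in untreated tetO-GLN4 and 57.3 (45.4 to 69.2) in tetO-GLN4 with doxycycline, a log2 ratio of 1.32 between the untreated strains. INO4 was at 72 (55.5 to 88.5), 77 (59.6 to 94.3), 218 (173 to 264) and 59.4 (45.5 to 73.3) in that order, a ratio of 1.45. The repressor gene OPI1 was at 67.4 (53.8 to 81), 74.9 (59.9 to 90), 177 (138 to 215) and 88.4 (70.6 to 106), a ratio of 1.24. Genes for the activators and for the repressor therefore stood higher together.

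**Figure D2:**
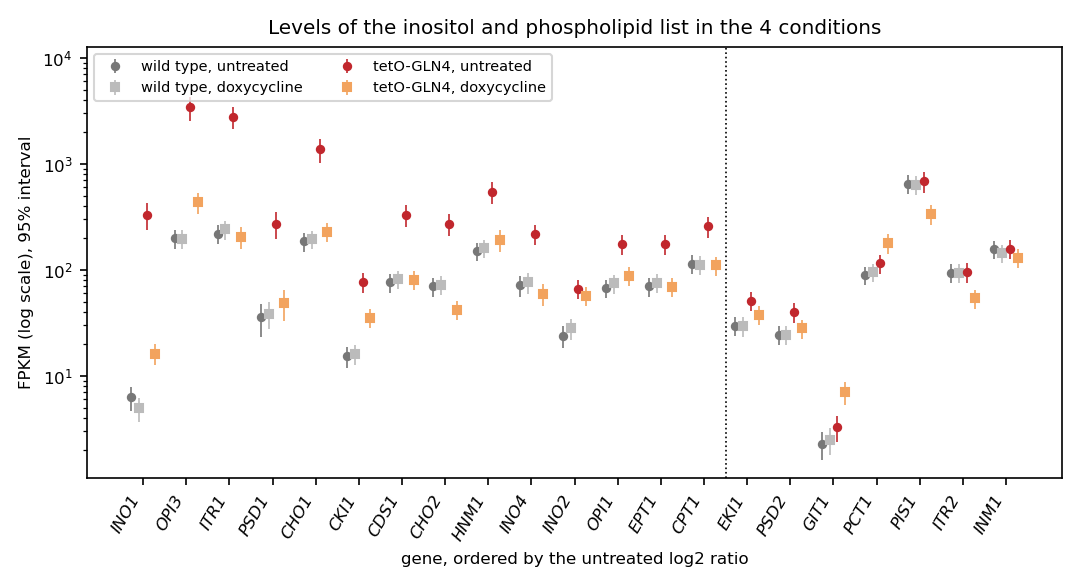
FPKM (log scale) of the 21 inositol and phospholipid genes in the 4 conditions, each point the combined value of 3 cultures with the authors' 95% interval as a bar; genes are ordered by the centred log2 ratio of the untreated strains, and the dotted line parts the 14 called higher from the 7 not called. Both wild-type points lie together for each gene, and untreated tetO-GLN4 stands above them left of the line. The point of tetO-GLN4 with doxycycline lies lower than without it for these 14 genes, with overlapping intervals for INO2. It is still above wild type with intervals apart for INO1, OPI3, CKI1 and INO2, and with overlapping intervals for PSD1, CHO1, HNM1 and OPI1.

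With doxycycline in both strains most inositol and phospholipid genes were not called. In that comparison, made on separate libraries and resting on the condition that lacked α-specific transcripts at the wild-type level, 602 genes were called higher (9.19%) and 606 lower (9.25%) of 6554, and 2 of the 21 inositol and phospholipid genes were called higher and 1 lower, with a median of 0.06. Histone genes were called lower there in 10 of 11 cases, with a median of -2.27, against none called between the untreated strains, and the part of these shifts in the phospholipid values was not tested. The 2 called higher were INO1, with a log2 ratio of 1.54, and GIT1, with 1.32, and the 1 lower was PIS1, with -1.10. OPI3 had a ratio of 0.98, ITR1 of -0.40 and CHO1 of 0.06. Set against wild type with doxycycline in place of untreated wild type, untreated tetO-GLN4 gave 139 genes called higher (2.12%) and 28 lower (0.427%) of 6551. This shares the tetO-GLN4 values with the main comparison, so it only exchanges the reference: 126 of the 135 higher and 18 of the 22 lower genes were called in both. Of the 135, 44 were also called higher with doxycycline in both strains and 10 were called lower, and their median log2 ratio was 1.53 untreated and 0.65 with doxycycline. For the 22 lower genes the medians were -1.26 and 0.06, with 5 still called lower and 7 called higher.

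Genes next to these pathways were also called higher. In the fatty acid list 4 of 14 were called higher and none lower, or 28.6% against 2.06% of all genes, with a median of 0.19: ACC1, the acetyl-CoA carboxylase, FAS1 and FAS2, the subunits of fatty acid synthase, and FAA1, an acyl-CoA synthetase. FAS2 had an FPKM of 131 (103 to 159) in untreated wild type and 451 (346 to 555) in untreated tetO-GLN4, a log2 ratio of 1.64, and FAS1, ACC1 and FAA1 had ratios of 1.45, 1.57 and 1.81. Phosphatidylcholine synthesis by Cho2 and Opi3 consumes S-adenosylmethionine. SAM2, one of the S-adenosylmethionine synthetases, had an FPKM of 230.4 (184 to 277) in untreated wild type, 266 (213 to 319) in wild type with doxycycline, 2176 (1659.7 to 2691) in untreated tetO-GLN4 and 139 (109.5 to 168) in tetO-GLN4 with doxycycline. Its log2 ratio was 3.09. In the sulfate and methionine list only SAM2 and MET13, a methylenetetrahydrofolate reductase, were called of 31 members. That was 6.45% against 2.06% of all genes, and the median was 0.03. SAH1, which hydrolyses the S-adenosylhomocysteine that methylation leaves, was picked after its values were seen and had a ratio of 1.31. Other lipid genes picked in that way were EHT1 at 2.35, the mitochondrial lipid gene UPS2 at 1.46 and the mitochondrial fatty acid dehydratase gene HTD2 at 1.19.

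The strings printed above were counted in the 500 bases before the start codon of 5843 genes, on both strands and with no regard to gene function. CATGTG occurred upstream of 13.2% of all these genes, of 31.3% of the genes called higher (41 of 131 with a full window) and of 66.7% of the inositol and phospholipid list (14 of 21). The longer CATGTGAA, which contains the core, was rarer, at 1.45% of all (85 genes), 16.8% of those called higher (22 of 131) and 52.4% of the list (11 of 21). Read the other way, 25.9% of the 85 genes with CATGTGAA were called higher and none lower, and their median log2 ratio was 0.34, with 62 of 85 above 0. The 684 genes with the 6-base core alone were close to all genes, with 2.78% called higher, 1 called lower and a median of 0.01, although OPI3 and PSD1 are among them. Over all 769 genes with the core, in either form, 5.33% were called higher and the median was 0.03. Among the 5074 genes without the core 1.77% were called higher and the median was -0.01. A match is a string of letters and not a known binding site.

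**Figure D3:**
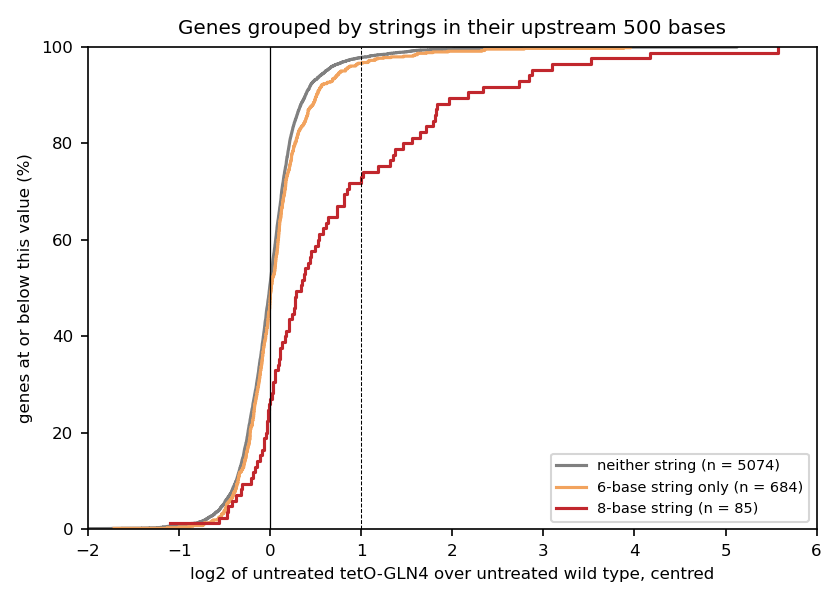
Cumulative share of genes (vertical, percent) at or below a given centred log2 ratio of untreated tetO-GLN4 over untreated wild type (horizontal, values under -2 drawn at -2), for genes with neither string in the upstream 500 bases, with the 6-base core only, and with the 8-base string. The 8-base curve (85 genes) runs to the right of the others above 0 and leaves 25.9% of its genes called higher, whereas the curve for genes without the core (5074 genes) crosses 0 near its middle.

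The 22 genes that had CATGTGAA and were called higher comprised 10 of the inositol and phospholipid list, FAS2 and FAA1 of the fatty acid list, and 10 outside both. YEL073C, an uncharacterised gene near the left end of chromosome V, was the highest of the latter: its FPKM was 22.2 (15.6 to 28.8) in untreated wild type, 21 (14.7 to 27.4) in wild type with doxycycline, 444 (344 to 544) in untreated tetO-GLN4 and 30 (21.5 to 38.5) in tetO-GLN4 with doxycycline. Its log2 ratio of 4.18 was larger than that of OPI3. SAM2 was another, and so were YLR132C at 2.87, YJR008W at 2.84 and COS111 at 1.84. HTD2, the protein kinase gene YAK1, KNH1, RSF1 and YOL107W made up the rest, with ratios between 1.19 and 2.34, and are named here because of the string, after their values were seen.

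Some genes called higher lay next to each other on the chromosome. Of 13 pairs of adjacent genes both called higher, 4 were divergent and 9 lay on the same strand. Orientations among all adjacent genes were not counted, so these counts have no background to be judged by. The divergent pairs were INO2 with YDR124W (846 bases apart), OPI3 with MOG1 (159 bases), CKI1 with YLR132C (289 bases) and INO4 with YOL107W (215 bases), so each included a member of the inositol and phospholipid list. MOG1 had an FPKM of 59.8 (46.7 to 72.9) in untreated wild type and 256 (202 to 310.1) in untreated tetO-GLN4, a log2 ratio of 1.95. In the CKI1 and INO4 pairs the same copy of CATGTGAA lies upstream of both genes, as does 1 copy of CATGTG in the OPI3 pair. MOG1 and YDR124W were named after their values were seen.

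Reserve carbohydrate genes formed the second group. In the glycogen and trehalose list 9 of 17 were called higher and none lower, or 52.9% against 2.06% of all genes, all 17 had a ratio above 0, and the median was 1.15. All members of this list are described too. GSY1, a glycogen synthase, had an FPKM of 5.06 (3.83 to 6.29) in untreated wild type, 5.41 (4.07 to 6.76) in wild type with doxycycline, 133 (96.1 to 170.3) in untreated tetO-GLN4 and 12.5 (9.75 to 15.2) in tetO-GLN4 with doxycycline. At 4.57 on the log2 scale, or 23.8-fold, it was exceeded by INO1 and RRT15 alone among the 15 highest genes ranked. Its paralog GSY2 was at 38.9 (31.1 to 46.8) and 149 (110.1 to 187) in the untreated strains, a ratio of 1.79. GLC3, the branching enzyme, went from 5.71 (4.34 to 7.08) to 61.8 (46.1 to 77.6), a ratio of 3.29. PGM2, a phosphoglucomutase that supplies glucose 1-phosphate, was at 24.5 (19.3 to 29.6) and 132 (98.5 to 166), a ratio of 2.29.

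Enzymes of both synthesis and breakdown were found in this group, but not in equal number. The glycogenin gene GLG1, which primes glycogen, was called at 1.60, while its paralog GLG2 had a ratio of 0.33. For trehalose, the synthase gene TPS1 had an FPKM of 112 (89.5 to 134) in untreated wild type and 371 (276 to 466) in untreated tetO-GLN4, a log2 ratio of 1.59. The phosphatase gene TPS2 and the regulatory subunit gene TSL1 were called at 2.03 and 1.55, and the subunit gene TPS3 was not, at 0.71. GPH1, glycogen phosphorylase, was the only breakdown enzyme called, at 1.15, and shares its locus in the tables with 2 other features. The debranching enzyme gene GDB1 and the trehalase genes NTH1, NTH2 and ATH1 had ratios from 0.12 to 0.43. UGP1 and GAC1, at 0.88 and 0.66, were not called.

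**Figure D4:**
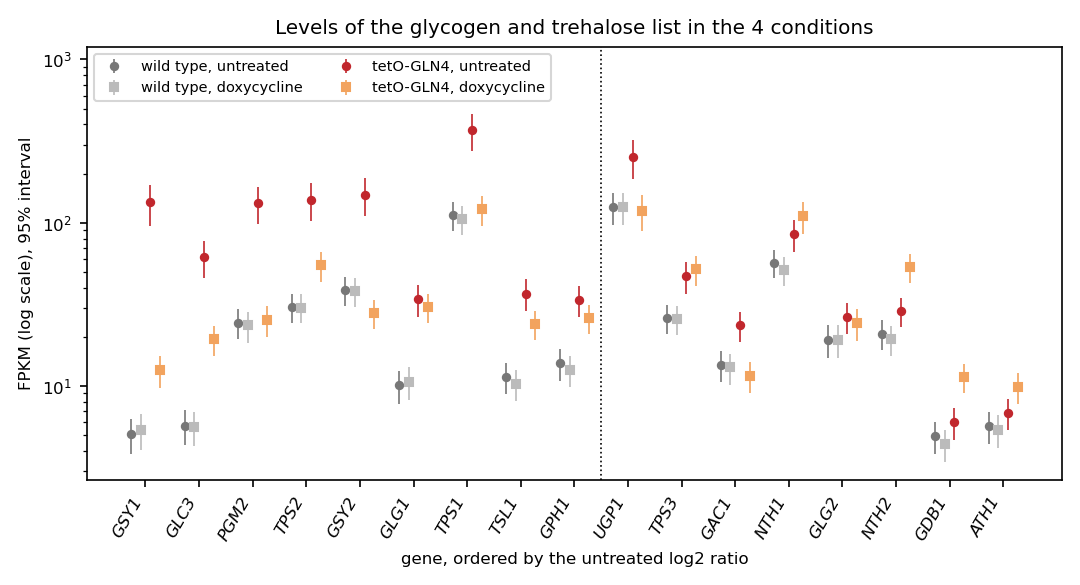
FPKM (log scale) of the 17 glycogen and trehalose genes in the 4 conditions, as combined values of 3 cultures with the authors' 95% interval; genes are ordered by the centred log2 ratio of the untreated strains, and the dotted line parts the 9 called higher from the 8 not called. Untreated tetO-GLN4 lies above both wild-type points for the called genes, most of all for GSY1, and tetO-GLN4 with doxycycline lies between wild type and untreated tetO-GLN4 for GSY1, GLC3 and TPS2 and level with wild type for PGM2 and TPS1.

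With doxycycline in both strains 6 of the 17 were called higher and none lower, against 9.19% and 9.25% of all genes, and the median was 0.85. The difference from the lipid list, with 2 of 21 called higher there, was not tested. GLC3 had a log2 ratio of 1.61 there, GLG1 of 1.36 and GSY1 of 1.04, whereas PGM2 and TPS1 had ratios of -0.06 and 0.03. The string AGGGG was found upstream of 34.2% of all 5843 genes, of 67.2% of the genes called higher and of 82.4% of the glycogen and trehalose list (14 of 17). Among the genes called lower it was found for 42.9% (9 of 21 with a full window). In the inositol and phospholipid list it was found for 38.1% (8 of 21), and CATGTGAA was found for none of the 17 reserve carbohydrate genes.

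Carbon uptake and respiration genes were called higher in a minority of each list, although most members of these lists lay above 0. In the hexose transporter list 5 of 21 were called higher and none lower, or 23.8% against 2.06% of all genes, with a median of 0.36. HXT7 had an FPKM of 7.11 (5.35 to 8.87) in untreated wild type and 27.4 (21.3 to 33.5) in untreated tetO-GLN4, a ratio of 1.80, and HXT6 was at 0.529 (0.307 to 0.751) and 3.25 (2.24 to 4.26), a ratio of 2.47. HXT6 and HXT7 are near-identical neighbours, so reads may have been split between them and the 2 values are uncertain as separate measurements. MTH1, a regulator of glucose-induced transporter genes, was called at 1.61. HXT4 had an FPKM of 135 (106 to 164) in untreated wild type and 375 (276 to 474) in untreated tetO-GLN4, a ratio of 1.33. HXT5 was called at 1.22, and both were named after their values were seen. The citrate synthase genes CIT2, of the peroxisome, and CIT1, of the mitochondrion, were the 2 of 22 tricarboxylic acid cycle genes called higher, at 2.02 and 1.46, 9.09% of that list, with a median of 0.37. In that list 19 of 22 lay above 0. Of 37 respiratory chain genes 3, or 8.11%, were called higher, again against 2.06% of all genes: HAP4, the limiting subunit of the respiratory activator, at 1.76, the external NADH dehydrogenase gene NDE1 at 1.33 and the cytochrome c gene CYC1 at 1.01. HXK1, hexokinase 1, was the only glycolytic gene called, at 1.30, although 18 of 19 were above 0 and the list had a median of 0.34. The highest ratio in that list, 1.65, belonged to a gene not called because its intervals overlapped. The maltose transporter genes MAL31 and MAL11 were called at 1.61 and 1.29, and they too belong to a family of similar sequences.

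Stress genes were called in both directions. Of 30 general stress genes 7 were called higher (23.3%, against 2.06% of all genes) and 2 lower (6.67%, against 0.335%), with a median of 0.35. HSP30, a plasma membrane protein gene, was at 138 (110.2 to 165) in untreated wild type and 578 (421 to 734) in untreated tetO-GLN4, a log2 ratio of 1.92. SOL4 and DCS2 were called at 1.58 and 1.18. HSP12, one of the strongest stress-responsive genes of yeast, went the opposite way: its FPKM was 5015 (3976 to 6055) in untreated wild type, 4657 (3698 to 5617) in wild type with doxycycline, 1340.3 (928 to 1752) in untreated tetO-GLN4 and 2575 (1979 to 3170.5) in tetO-GLN4 with doxycycline. That is 4.14-fold lower in untreated tetO-GLN4, a log2 ratio of -2.05. YGP1, a secreted glycoprotein gene, was lower as well, at -1.10. Of 32 chaperone genes HSP42 and HSP104, which sort and dissolve protein aggregates, were called higher at 2.45 and 1.54, or 6.25% of that list against 2.06%, and the list had a median of 0.12. AGGGG was found upstream of 93.3% of the general stress list.

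Other genes among the 15 highest had no common role. RRT15 had an FPKM of 3.97 (2.31 to 5.63) in untreated wild type, 12.8 (3.73 to 21.8) in wild type with doxycycline, 154 (89.3 to 218) in untreated tetO-GLN4 and 10.5 (2.96 to 18) in tetO-GLN4 with doxycycline. The wild-type values for RRT15 were themselves unlike, although their intervals overlapped, and its log2 ratio of 5.13 became 3.44 against wild type with doxycycline. TPO4, a polyamine transporter gene, was at 22.4 (17.7 to 27.1) and 177 (129.9 to 225) in the untreated strains, a ratio of 2.84. RGI1, linked to respiratory growth, was at 65.8 (47.7 to 83.9) and 505 (327 to 683), a ratio of 2.79, at a locus shared with other features, and YNL144C was called at 2.56. By the same naming rule the amino acid permease genes DIP5 and AGP2, the zinc transporter gene ZRT1, the flavohemoglobin gene YHB1, SER3 of serine synthesis and the CTP synthase gene URA8 were called higher, at ratios from 1.01 to 1.53. ZRT1 also differed between the wild-type conditions, with FPKM values of 131 untreated and 66.9 with doxycycline.

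The 22 genes called lower were mostly single genes with no shared list. Among the 15 lowest, YHR022C-A had an FPKM of 40.4 (36.3 to 44.6) in untreated wild type, 13.6 (11.4 to 15.9) in wild type with doxycycline, 4.92 (3.94 to 5.90) in untreated tetO-GLN4 and 139 (40.3 to 237) in tetO-GLN4 with doxycycline, a log2 ratio of -3.19. It is a small reading frame whose level also differed between the wild-type conditions, and the same holds for YAR035C-A, whose ratio of -2.26 became -0.02 against wild type with doxycycline. YCL048W-A was at 72.2 (51.7 to 92.6) and 15.1 (7.78 to 22.5), a ratio of -2.40. YOR338W was at 59.3 (47 to 71.5) and 17.1 (12.5 to 21.7), a ratio of -1.94, and NQM1, a transaldolase gene, at 24.2 (18.7 to 29.7) and 8.26 (5.96 to 10.6), a ratio of -1.70. YLR364C-A, YDR034W-B, FMP23, JJJ3, YNL162W-A, SHC1, NCA3 and the drug transporter gene AQR1 had ratios from -1.88 to -1.17. Of lists otherwise without calls, HES1 of the ergosterol list, FIG1 of the mating fusion list and LYS20, a homocitrate synthase gene, were lower at -1.32, -1.01 and -1.02. FIG1 was at 11.7 (8.55 to 14.8) in untreated wild type and 7.32 (5.37 to 9.27) in wild type with doxycycline, with overlapping intervals. Against wild type with doxycycline its ratio was -0.34.

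Several growth-related lists lay a little below the median of all genes, with few members called. Of 41 genes of G1 to S and replication 37 had a ratio below 0 and the list median was -0.42. In that list 2 were called lower, or 4.88% against 0.335% of all genes. These were CLB6, an S-phase cyclin gene, with an FPKM of 10.8 (8.21 to 13.4) in untreated wild type and 4.95 (3.51 to 6.38) in untreated tetO-GLN4 (log2 ratio -1.28), and PCL1, a G1 cyclin gene, at 154 (123 to 185) and 84.8 (66.8 to 103) (-1.01). Ribosome biogenesis genes had a median of -0.35, with 77 of 81 below 0 and none called. RNA polymerase I genes had a median of -0.41, with all 11 below 0. RRN11, of the core factor, was the only one called, at -1.14, or 9.09% of that list. Histidine, lysine and aromatic amino acid synthesis genes had medians of -0.32, -0.31 and -0.31, with LYS20 the only one called, or 12.5% of the lysine list. The signs of these medians were kept under every centring tried, but without centring the ribosome biogenesis median was -0.21 and that of G1 to S was -0.28.

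The lists closest to the function of Gln4p were near the median of all genes. The 20 cytosolic tRNA synthetase genes with a value had ratios from -0.22 to 0.14, a median of -0.05, and no call. GCN4, the activator of the general amino acid control, had an FPKM of 2396 (1858 to 2934) in untreated wild type and 2798 (2156 to 3441) in untreated tetO-GLN4, a log2 ratio of 0.08. GCN4 is named for its link to the study and not by its ratio, and none of 9 general control genes was called. Cytosolic ribosomal protein genes, 138 in number, had a median of -0.12, which became 0.03 without centring, and none was called.

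**Figure D5:**
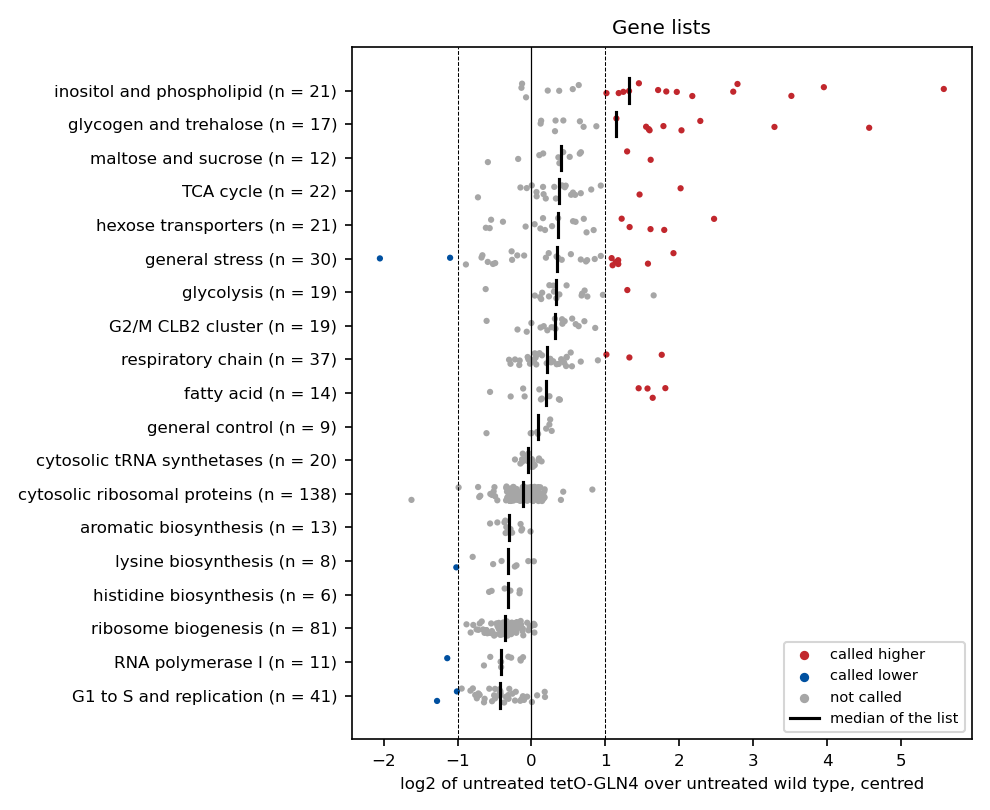
Centred log2 ratio of untreated tetO-GLN4 over untreated wild type (horizontal) for each member of 19 gene lists, ordered by their median (vertical bar), with genes called higher or lower in colour and dashed lines at 2-fold. The inositol and phospholipid list (median 1.32) and the glycogen and trehalose list (median 1.15) stand apart at the top, and the tRNA synthetase genes gather between -0.22 and 0.14.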

How the data were processed

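RNA from 12 yeast cultures (2 strains, 2 conditions, 3 cultures each) had been sequenced from stranded mRNA libraries. Per the submitters' processing notes the authors used TopHat 1.4.0, Cufflinks and Cuffdiff with build sacCer3 (R64). The deposited FPKM values were made by the authors with Cuffdiff, once per strain, as 1 value per gene and condition with a 95% confidence interval. Cuffdiff's own fold changes and p-values within a strain were deposited too and were not used. No counts or values per culture were analysed, so depth is unknown, and precision rests on the intervals, whose median half-width was 21.1% of the FPKM in untreated wild type and 21.8% in untreated tetO-GLN4. The tables were joined on gene ID, log2 ratios were taken without a pseudocount and centred on the median of 6562 genes, and the call rule was run on simulated data beforehand. No test was made across the separately normalized tables. The members and the lists were chosen with earlier results of these data known. Named genes are GLN4 and the nearest 3 listed genes on each side, the background markers, the 15 highest and 15 lowest called genes with an FPKM of at least 5 in the higher condition, and the 3 highest and 3 lowest called members of each of 58 lists, others being said to be picked after their values were seen. Motifs were searched in the 500 bases before each start codon of RefSeq R64 with Python 3.11.15, pandas 2.3.3 and numpy 2.4.6. Alternatives changed the centring, pseudocount, minimum FPKM, call rule and wild-type reference.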

Additional observations from a re-analysis of the deposited data

How the results depend on the processing

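The count of 135 genes called higher lay between 120 and 167, and that of 22 lower between 16 and 28, under no centring, 2 other centrings, a pseudocount of 1 FPKM, minimum FPKM values of 1 and 5, wild type with doxycycline as reference, and a restriction to genes at a locus of their own, which was added after the data were seen. The call rule itself moved them more: intervals apart alone gave 275 higher and 122 lower, 1.5-fold with intervals apart 274 and 122, and 4-fold with intervals apart 33 and 4, while 2-fold alone gave 191 higher and 68 lower. Without centring 12 of 54 list medians changed sign, and no list with a median of at least 0.2 in size changed sign under any setting. Of 71 single genes 5 moved by more than their intervals under a setting: with wild type with doxycycline as reference RRT15 became 3.44, YHR022C-A -1.62, YAR035C-A -0.02 and ZRT1 2.25, and with the pseudocount HXT6 became 1.34. None of the named genes that were called changed sign. No paired analysis was possible because the deposited columns hold 1 combined value per condition, and for the same reason no culture could be left out. Depth is unknown.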

Other observations

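Cell cycle lists lay on different sides of the median of all genes. Of 19 genes of the CLB2 cluster, transcribed at G2/M, 15 had a ratio above 0 and the median was 0.32, with none called, whereas the G1 to S list had a median of -0.42. SWI5, a transcription factor gene of the cluster, had an FPKM of 30.9 (24.6 to 37.2) in untreated wild type and 62.2 (49.3 to 75.2) in untreated tetO-GLN4, a centred log2 ratio of 0.86, and CDC20, an activator of the anaphase-promoting complex, had 30.8 (24.4 to 37.1) and 56 (44.7 to 67.3), a ratio of 0.72. RNR1, the large subunit gene of ribonucleotide reductase, was at 267 (212 to 322) and 175 (133 to 216), a ratio of -0.76, while RNR2 and RNR4, for the small subunit, were both at 0.18. The intervals of SWI5, CDC20 and RNR1 lay apart after centring, and their ratios were under 2-fold. These genes were picked after their values were seen.

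Along the chromosomes, 255 windows of 25 genes had medians between -0.18 and 0.45. The highest was at chrX:100298-139628, which held INO1, and the next highest median was 0.20. There were 15 runs of 4 or more successive genes each above 0.3. Among them were 6 genes on chromosome VII with a median of 0.66 and 5 on chromosome VIII with a median of 1.24. The longest run held 8 genes, from YJL171C to YJL163C with a median of 0.71, and overlapped the highest window. What lies behind this stretch was not tested.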
